A study of Mus musculus with 32 samples.

Results

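The genes described here are Il1a, Il1b and Tnf, which encode the inflammatory ligands interleukin-1α, interleukin-1β and tumor necrosis factor, the inhibitors Il1rn and Tnfrsf11b, and the receptor genes Il1rap, Tnfrsf1a, Tnfrsf1b and Tnfrsf11a. They were chosen by name as the interleukin-1 (IL-1) and TNF ligands, antagonists and receptors among the genes of a microglial expression table. The choice was made with earlier results of these data known. All 9 of 9 were found among the 18588 genes of the table. Microglia RNA was sequenced from the forebrains of female rTg4510 and wild type (WT) mice of 2, 4, 6 and 8 months. rTg4510 mice carry human 4-repeat tau with the P301L mutation behind a tetracycline-responsive element. They also carry a second transgene, in which the CaMKIIα promoter drives the tetracycline transactivator. The study describes tau as made after birth in forebrain neurons, while the cells sequenced here were microglia. The WT mice carried neither transgene; the study describes them as littermates and their strain label reads 129/FVB F1. No doxycycline was named for either genotype. Each library came from CD11b-positive cells taken with magnetic beads from pooled forebrains, with 4 libraries per genotype and age, of which the study kept 4 of each genotype at 2 and 6 months and 3 of each at 4 and 8 months (28 of 32).

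IL-1α and IL-1β bind the receptor IL1R1, which then recruits the accessory chain encoded by Il1rap and signals through MyD88 and IRAK kinases to NF-κB. The protein of Il1rn occupies the same receptor without recruiting the accessory chain, and so blocks both ligands. TNF binds TNFR1 (Tnfrsf1a), which is made by most cells, and TNFR2 (Tnfrsf1b), which is prominent on immune cells. RANK (Tnfrsf11a) is the receptor for RANK ligand in osteoclast precursors, and osteoprotegerin (Tnfrsf11b) is a secreted decoy for that ligand. Microglia are a main source of IL-1 and TNF in the brain.

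Expression is given as the deposited log2 signal, where a difference of 1 is a 2-fold change. Signals are not scaled by transcript length, so they were compared between libraries and not between genes. A gene was called different when it changed by more than 1.5 fold at a false discovery rate (FDR) under 0.05 in a limma linear model with 8 group means, adjusted over all genes of the table. Il1a, Il1b and Tnfrsf11b were called higher in rTg4510 at 2 months, and Il1a, Il1b, Tnf, Il1rn and Tnfrsf11b at each of 4, 6 and 8 months. None of the 9 was called lower. This made 3 of 9 genes higher at 2 months, when 1.58% of all genes were called higher and 0.403% lower. It was 5 of 9 at 4 months (9.47% of all genes higher, 4.33% lower), 5 of 9 at 6 months (11.3% and 8.54%) and 5 of 9 at 8 months (10.5% and 5.37%). The call for Tnfrsf11b at 2 months depends on WT signals near the bottom of the scale, as described below. The median log2 fold change of the 9 genes was 0.69, 0.71, 0.74 and 0.92 at the successive ages, against 0.01, -0.04, -0.04 and -0.01 over all genes. The 4 receptor genes were not called at any age. In bulk RNA of this kind, more cells of a type and more RNA per cell cannot be told apart.

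**Figure D1:**
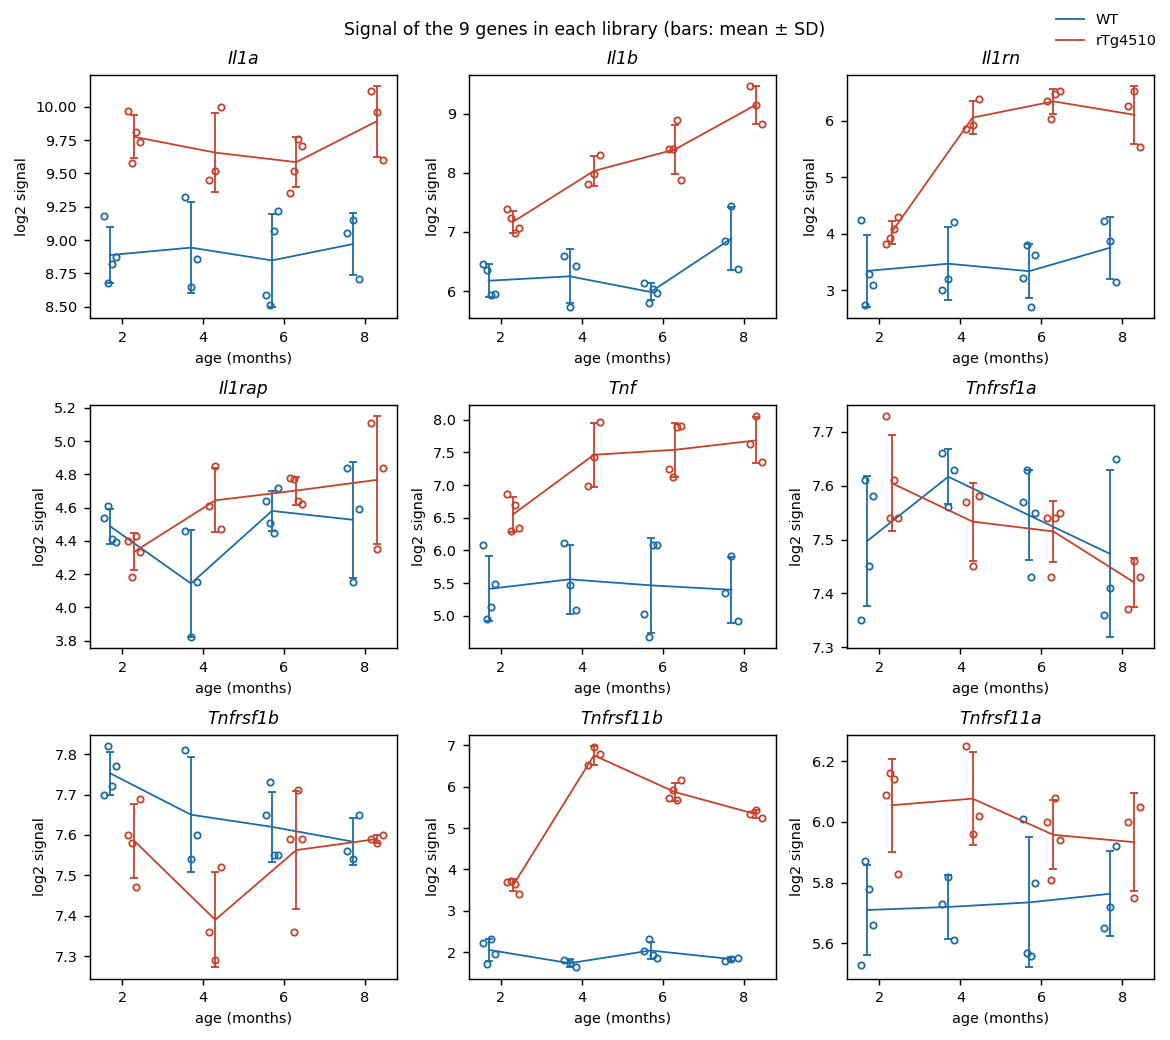
Log2 signal (vertical axes, a separate range for each gene) of the 9 genes against age in months, in the 28 libraries. Circles are libraries, lines join group means and bars are the SD, blue for WT and red for rTg4510. Tnfrsf11b of WT stays between 1.63 and 2.33 at every age, while the rTg4510 libraries reach 6.97 at 4 months.

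The promoters of the genes that were higher at 4, 6 and 8 months are shown because all 5 were called at these ages. RefSeq promoter sequences (build GRCm38.p6) were found for 8 of the 9 genes, and for 4 of these 5. Each sequence is the 250 bases before an annotated start, 5′ to 3′ on the strand of the gene. Capitals mark matches on either strand to the TATA box TATAAA, the AP-1 motif TGANTCA, the PU.1 motif GAGGAA or an NF-κB half-site pair, GGG and CC with 5 free bases between them.
Il1a, chr2:129309973-129310222, minus strand: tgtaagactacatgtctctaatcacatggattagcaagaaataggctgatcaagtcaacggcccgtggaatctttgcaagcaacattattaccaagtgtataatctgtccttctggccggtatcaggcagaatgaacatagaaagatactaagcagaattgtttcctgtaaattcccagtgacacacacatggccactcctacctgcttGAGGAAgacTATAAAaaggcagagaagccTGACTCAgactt
Il1b, chr2:129371140-129371389, minus strand: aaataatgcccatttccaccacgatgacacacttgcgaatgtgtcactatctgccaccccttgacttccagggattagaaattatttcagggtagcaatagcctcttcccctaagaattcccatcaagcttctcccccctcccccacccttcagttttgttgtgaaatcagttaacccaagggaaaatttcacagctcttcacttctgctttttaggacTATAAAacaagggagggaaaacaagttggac
Tnf, chr17:35202008-35202257, minus strand: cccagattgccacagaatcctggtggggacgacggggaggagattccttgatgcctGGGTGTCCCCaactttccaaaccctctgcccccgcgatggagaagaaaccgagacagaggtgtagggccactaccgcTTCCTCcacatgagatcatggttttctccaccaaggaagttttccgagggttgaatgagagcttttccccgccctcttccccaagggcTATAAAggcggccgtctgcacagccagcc
Il1rn, chr2:24336610-24336859, plus strand: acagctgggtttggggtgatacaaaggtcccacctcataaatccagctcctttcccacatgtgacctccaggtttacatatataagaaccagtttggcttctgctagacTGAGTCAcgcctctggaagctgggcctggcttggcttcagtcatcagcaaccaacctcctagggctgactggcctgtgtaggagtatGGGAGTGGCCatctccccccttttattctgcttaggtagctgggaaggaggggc
A TATA box stood 32 bases before the start of Il1a, 31 before that of Il1b and 29 before that of Tnf, while 12.4% of all 32851 promoter windows held one. The AP-1 motif was found in Il1a, 12 bases before the start, and in the printed window of Il1rn, and was present in 6.75% of all windows. PU.1, a transcription factor of myeloid cells, had a match in Il1a and in Tnf, against 23.3% of all windows. The NF-κB pattern, which 45.8% of windows contained, was found in Tnf (the same 10 bases on both strands) and in Il1rn, and these letters were not in the windows of Il1a and Il1b. It also matched in the windows of all 4 receptor genes, which were not called (9 times in Il1rap, 3 in Tnfrsf1b, 3 in Tnfrsf11a and 1 in Tnfrsf1a), and the PU.1 motif matched once in Tnfrsf1b. Il1rn has 2 further annotated starts, of which the window chr2:24345121-24345370 held 1 NF-κB match and the window chr2:24345041-24345290 no match to the 4 motifs. These matches describe the letters only.

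Il1b encodes interleukin-1β, which is made as an inactive precursor and cut by caspase-1. At 2 months the 4 WT libraries had log2 signals of 6.46, 6.36, 5.93 and 5.95, and the 4 rTg4510 libraries 7.39, 7.24, 6.98 and 7.07. At 4 months the signals were 6.60, 5.73 and 6.42 in WT and 7.81, 7.98 and 8.30 in rTg4510. Every rTg4510 library lay above every WT library at both ages. At 6 months the WT libraries had 6.14, 5.80, 6.04 and 5.96, and the rTg4510 libraries 8.40, 8.40, 8.89 and 7.88. At 8 months they had 6.85, 7.44 and 6.38 in WT and 9.47, 9.15 and 8.82 in rTg4510. The genotypes again did not overlap, and the highest WT signal of all ages, 7.44 at 8 months, was above all 4 rTg4510 libraries of 2 months. The log2 fold change was 1.0 at 2 months (SE 0.235, limma FDR 0.011, lost when all 32 libraries were fitted), 1.78 at 4 months (SE 0.272, FDR 3.71e-05), 2.41 at 6 months (SE 0.235, FDR 4.98e-08) and 2.26 at 8 months (SE 0.272, FDR 1.41e-06). These are 2-fold, 3.44-fold, 5.31-fold and 4.78-fold higher signals. The difference between genotypes was itself larger at 8 than at 2 months by 1.26 (SE 0.36, FDR 0.0284), a call that was lost, at values of 1.01 to 1.54 over all omissions, when any of 7 single libraries was omitted (rTg4510 replicate 4 and WT replicates 1 and 2 of 2 months, and replicates 1 and 2 of rTg4510 and 1 and 3 of WT at 8 months). It was also lost when all 32 libraries were fitted (1.31, FDR 0.149). Between 4 and 2 months it grew by 0.78, which did not pass the test (FDR 0.228).

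Tnf encodes TNF, a transmembrane protein that the protease of Adam17 releases. At 2 months the WT libraries had log2 signals of 6.08, 4.95, 5.13 and 5.48, and the rTg4510 libraries 6.86, 6.30, 6.69 and 6.35. At 4 months the signals were 6.12, 5.47 and 5.08 in WT and 6.99, 7.43 and 7.97 in rTg4510. All rTg4510 libraries lay above all WT libraries of their age, by a gap of 0.22 at 2 months and 0.88 at 4 months. At 6 months the WT libraries had 5.02, 4.67, 6.09 and 6.08, and the rTg4510 libraries 7.24, 7.13, 7.89 and 7.90. At 8 months they had 5.35, 5.92 and 4.92 in WT and 7.63, 8.06 and 7.36 in rTg4510. The gap was 1.04 and 1.44 at these ages, and the WT groups were widely spread, with an SD of up to 0.729 at 6 months. The log2 fold change of Tnf was 1.14 at 2 months (SE 0.348), just outside the threshold at an FDR of 0.0587, and 1.91 at 4 months (SE 0.402, FDR 0.00115), 2.07 at 6 months (SE 0.348, FDR 7.22e-05) and 2.29 at 8 months (SE 0.402, FDR 0.000156). The value at 2 months passed with a moderated variance and with same-numbered libraries as blocks. It also passed when only genes above the 25th percentile of mean signal were tested. Without WT replicate 1 of 2 months (1.36) or WT replicate 2 of 6 months (1.14) it passed too. The genotype difference of Tnf at 4 months exceeded that at 2 months by 0.77 (SE 0.531, FDR 0.473), and that at 8 months by 1.15 (SE 0.531, FDR 0.216), and neither passed the test.

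Il1a encodes interleukin-1α, whose precursor is already active. At 2 months the WT libraries had log2 signals of 9.18, 8.68, 8.82 and 8.87, and the rTg4510 libraries 9.97, 9.58, 9.81 and 9.74. At 4 months the signals were 9.32, 8.65 and 8.86 in WT and 9.45, 9.52 and 10 in rTg4510. The genotypes did not overlap, although the highest WT library of 4 months was only 0.13 below the lowest of rTg4510. At 6 months the WT libraries had 8.59, 8.51, 9.07 and 9.22, and the rTg4510 libraries 9.35, 9.52, 9.76 and 9.71. At 8 months they had 9.05, 9.15 and 8.71 in WT and 10.12, 9.96 and 9.60 in rTg4510. The groups were again separate, by 0.13 and 0.45. The log2 fold change of Il1a was 0.89 at 2 months (SE 0.183, FDR 0.00372), 0.71 at 4 months (SE 0.212, FDR 0.0173), 0.74 at 6 months (SE 0.183, FDR 0.00344) and 0.92 at 8 months (SE 0.212, FDR 0.00223). Its genotype difference at 8 months was within 0.04 of that at 2 months, with a 95% interval of -0.55 to 0.62. The call at 4 months was lost when WT replicate 2 (0.57), WT replicate 4 (0.67) or rTg4510 replicate 4 (0.54) was left out, and quantile normalization ended the calls at 4 months (0.54) and 6 months (0.52).

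**Figure D2:**
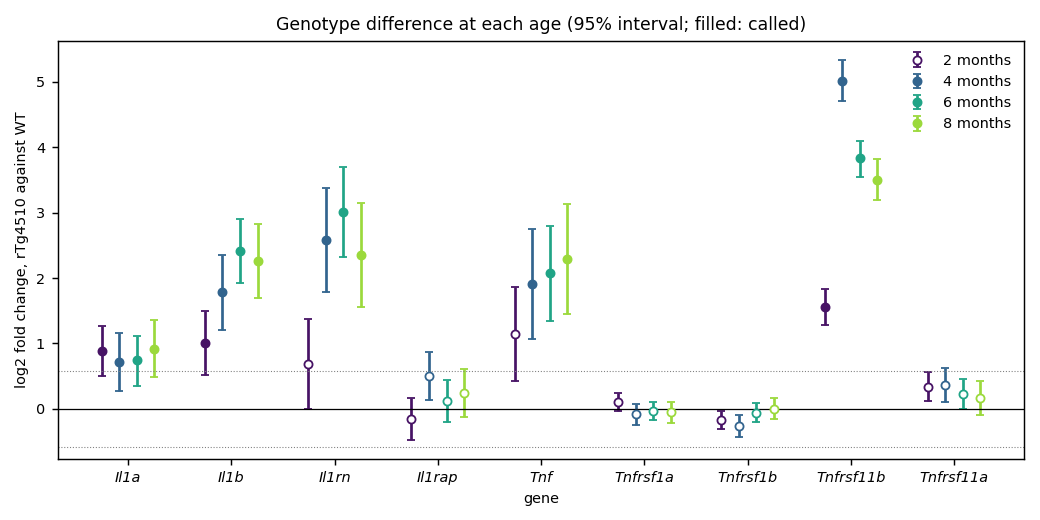
Log2 fold change of rTg4510 against WT (vertical axis) for the 9 genes (horizontal axis) at 4 ages, with 95% intervals from the model. Filled points passed both thresholds and the dotted lines mark a 1.5-fold change. Il1a stays between 0.71 and 0.92, Il1b is called at each age and Tnf and Il1rn at 4, 6 and 8 months, and the receptor genes lie within 0.50 of zero.

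Il1rn encodes the IL-1 receptor antagonist. At 2 months the WT libraries had log2 signals of 4.24, 2.74, 3.29 and 3.10, and the rTg4510 libraries 3.82, 3.92, 4.08 and 4.29. The groups overlapped, and the highest WT library exceeded 3 of the 4 rTg4510 libraries. At 4 months the signals were 3.0, 3.20 and 4.21 in WT and 5.86, 5.92 and 6.39 in rTg4510. At 6 months the WT libraries had 3.22, 3.80, 2.71 and 3.62, and the rTg4510 libraries 6.35, 6.04, 6.47 and 6.52. At 8 months they had 4.23, 3.88 and 3.15 in WT and 6.26, 6.53 and 5.53 in rTg4510. From 4 months on all rTg4510 libraries lay above all WT libraries, by 1.30 to 2.25. The log2 fold change of Il1rn was 0.69 at 2 months (SE 0.329, FDR 0.304, 95% interval 0.00 to 1.37), 2.59 at 4 months (SE 0.38, FDR 2.36e-05), 3.01 at 6 months (SE 0.329, FDR 2.56e-07) and 2.35 at 8 months (SE 0.38, FDR 5.99e-05). The difference grew by 1.90 from 2 to 4 months (SE 0.503, FDR 0.0236), and this call was lost without WT replicate 1, WT replicate 2 or rTg4510 replicate 4 of 4 months, with values of 1.60 to 2.27 over all single omissions. In 1 or 2 WT libraries of each age Il1rn lay within 3 reads of the lowest value of the library, as explained for Tnfrsf11b, so its folds depend in part on how low signals were made.

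Tnfrsf11b encodes osteoprotegerin. At 2 months the WT libraries had log2 signals of 2.23, 1.72, 2.31 and 1.96, and the rTg4510 libraries 3.69, 3.72, 3.64 and 3.40. At 4 months the signals were 1.82, 1.75 and 1.63 in WT and 6.52, 6.97 and 6.78 in rTg4510. The genotypes were 1.08 apart at 2 months and 4.70 apart at 4 months, the widest separation among the 9 genes. At 6 months the WT libraries had 2.03, 2.33, 1.94 and 1.86, and the rTg4510 libraries 5.73, 5.93, 5.67 and 6.15. At 8 months they had 1.79, 1.84 and 1.87 in WT and 5.33, 5.44 and 5.24 in rTg4510. In rTg4510 every library of 4 months was above every library of 6 months, and every library of 6 months above every library of 8 months. All 14 WT libraries lay near the bottom of the scale, since the lowest value of a library was between 1.23 and 1.92. Of the 20 most frequent values of a library, a median of 11 were on steps of log2(whole number + 1.5) above its lowest value, so that the lowest value was read as 0 reads, approximately, since the signal combines several exons. Against a floor of 3 reads in each WT library, the Tnfrsf11b signal of rTg4510 was at least 1.28-fold higher at 2 months, at least 12.5-fold higher at 4 months, at least 6.16-fold at 6 months and at least 4.57-fold at 8 months. The bound at 2 months was under the 1.5-fold threshold, so the call at that age depends on how low signals were made. With Tnfrsf11b at its bound, the median log2 fold change of the 9 genes at 2 months was 0.35 in place of 0.69, and that of the other ages stayed as given.

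The fitted FDR of Tnfrsf11b was 5.25e-07 at 2 months, 6.13e-15 at 4 months, 1.67e-14 at 6 months and 1.25e-12 at 8 months. Its genotype difference grew from 2 to 4 months by 3.47 on the fitted scale (SE 0.202, FDR 1.07e-09) and fell by 1.19 from 4 to 6 months (SE 0.202, FDR 0.0195). The rTg4510 means were 6.76 at 4 months and 5.87 at 6 months, against 1.73 and 2.04 in WT. Part of each fitted change is thus movement of WT signals near the bottom of the scale. Of all genes, 0.118% had a difference that became lower between 4 and 6 months and 0.0377% one that became higher. The second call was lost with a moderated variance, with same-numbered libraries as blocks and with all 32 libraries, and without rTg4510 replicate 2 or WT replicate 4 of 4 months or rTg4510 replicate 1 of 6 months, although the fitted value stayed between -1.31 and -1.09 when each library was left out in turn.

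The genotype difference became larger between 2 and 4 months in 2 of the 9 genes, Il1rn and Tnfrsf11b, against 3.77% of all genes, and smaller in none (0.893%). Between 6 and 8 months 0 of the 9 genes changed in their difference, and so did 0% of all genes in each direction. limma with a moderated variance also called 0 genes there. At an unadjusted p under 0.05 the contrast held 841 of the 18588 genes and 0 of the 9. Between 2 and 8 months the difference grew in 3 of 9 genes, Il1b (1.26), Il1rn (1.67, SE 0.503, FDR 0.039) and Tnfrsf11b (1.95, SE 0.202, FDR 2.2e-06), against 4.85% of all genes, and became smaller in none (1.85%). Leaving out rTg4510 replicate 1 or 2 of 8 months, WT replicate 1 of 2 months or WT replicate 3 of 8 months left 1 of these 3 calls. Il1rn lost its call in 9 of the 28 single omissions (rTg4510 replicates 1, 2 and 3 and WT replicates 1 and 3 of 2 months, rTg4510 replicates 1 and 2 and WT replicates 2 and 3 of 8 months), with values of 1.36 to 1.96.

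Within rTg4510, 4 of the 9 genes were higher at 8 than at 2 months, against 5.72% of all genes that were higher and 4.78% that were lower. They were Il1b (log2 fold change 1.98, SE 0.254, FDR 7.31e-06), Il1rn (2.08, SE 0.356, FDR 0.000193), Tnfrsf11b (1.72, SE 0.143, FDR 1.81e-08) and Tnf (1.14, SE 0.376, FDR 0.0347). The call for Tnf was lost without rTg4510 replicate 2 or 4 of 2 months or replicate 1 or 2 of 8 months. Il1a was at 0.12 in this comparison, with a 95% interval of -0.29 to 0.53. Within WT, limma called 0 of the 9 genes between 2 and 8 months with either variance, where 0.533% of all genes were higher and 0.737% lower, and 2 of the 9 had an unadjusted p under 0.05. These were Il1b, at 0.72 (SE 0.254, FDR 0.118), and Tnfrsf1b, at -0.17 (FDR 0.224). Without WT replicate 3 of 8 months Il1b of WT passed the test, at 0.97.

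Among the receptors, Tnfrsf1a (TNFR1) had group means of 7.42 to 7.62 over both genotypes and all ages, and the genotypes overlapped at each age. Its log2 fold change was 0.11, -0.08, -0.03 and -0.05 at the successive ages, and the 95% intervals lay between -0.24 and 0.24. Tnfrsf1b (TNFR2) had group means of 7.39 to 7.75. At 4 months its 3 rTg4510 libraries, at 7.36, 7.29 and 7.52, lay below the 3 WT libraries, at 7.81, 7.54 and 7.60, with a log2 fold change of -0.26 (SE 0.0801, FDR 0.0219) that was under the fold threshold. At 2 months the value was -0.17 (FDR 0.199) with no overlap, and at 6 and 8 months it was -0.06 and 0.00, with intervals of -0.20 to 0.09 and -0.16 to 0.17.

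Il1rap, the accessory chain of the IL-1 receptor, had log2 fold changes of -0.15, 0.50, 0.12 and 0.24 at the successive ages. The value at 4 months passed the FDR (0.047) but not the fold threshold, and its groups were 0.01 apart (4.46, 3.82 and 4.15 in WT and 4.61, 4.85 and 4.47 in rTg4510). It passed both thresholds without rTg4510 replicate 4 (0.59) or WT replicate 1 (0.66) of 4 months, and with the libraries that the study left out it was -0.07. Tnfrsf11a (RANK) had fold changes of 0.34 (FDR 0.0703), 0.36 (FDR 0.0398), 0.22 (FDR 0.121) and 0.17 (FDR 0.347), all under the fold threshold. Its WT libraries ranged from 5.53 to 6.01 and its rTg4510 libraries from 5.75 to 6.25. RANK ligand (Tnfsf11) was among the other TNF superfamily ligands listed, not all of which were measured, and no value of it is given here.

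Libraries of the same group differed in Il1a and Tnf in the same direction. Over the 28 libraries, with each group mean removed, Pearson's r of Il1a with Tnf was 0.885 (permutation within groups, 100000 resamples, two-sided p = 1e-05, the smallest they can give; adjusted over 3 pairs 3e-05) and Spearman's rho was 0.853 (permutation p = 4e-05, adjusted 0.00012). It was 0.863 without the 2 libraries farthest from the median. Il1a with Il1b had r = 0.554 (permutation p = 0.00729, adjusted 0.0109) and rho = 0.584 (permutation p = 0.00602, adjusted 0.00903), and r = 0.558 without 2 libraries. Il1b with Tnf had r = 0.402 (permutation p = 0.0581) and rho = 0.379 (permutation p = 0.0883), which did not pass. These p-values treat the libraries as independent, although same-numbered libraries of the 2 genotypes deviated together at 2, 6 and 8 months. The pairs of 6 and 8 months were then kept together in the permutation, a choice made after the values were seen. The adjusted permutation p of r was 0.00069 for Il1a with Tnf, 0.0173 for Il1a with Il1b and 0.0807 for Il1b with Tnf. That of rho was 0.00216, 0.0128 and 0.112. The libraries of 2 months were still treated as independent there.

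Immediate early genes, which cells switch on within minutes of a stimulus such as tissue dissociation, were read beside these ligands. All 13 listed were measured, and their summed log2 signal ranged from 17.39 to 18.23 in WT and from 17.46 to 18.25 in rTg4510, with overlap of the genotypes at every age. Per gene, the median log2 fold change of the 13 was 0.35, 0.22, 0.57 and 0.45 at the successive ages. Over all genes it was 0.01, -0.04, -0.04 and -0.01. The sum weighs the genes with the highest signal most. Within groups this sum went with Il1a (r = 0.787, permutation p = 0.00026, adjusted over the 9 genes 0.00234; rho = 0.774, adjusted 0.00387) and with Tnf (r = 0.788, permutation p = 0.00066, adjusted 0.00297; rho = 0.747, adjusted 0.00463). Without the 2 farthest libraries r was 0.745 and 0.76. For Il1b r was 0.314 (permutation p = 0.158) and for Il1rn 0.256 (permutation p = 0.258), and the other 5 genes also did not pass. With the pairs of 6 and 8 months kept together, the adjusted permutation p of r was 0.0203 for Il1a and 0.0229 for Tnf, and that of rho was 0.0298 and 0.0425. This relation was chosen after the values were seen. With the sum as a covariate, the log2 fold changes of Tnf were 0.98, 2.21, 2.06 and 2.44 at the successive ages and those of Il1a 0.80, 0.87, 0.73 and 1.0. Tnf was then also called at 2 months. What this adjustment can remove depends on how far the sum differs between the genotypes. Its group means at the successive ages were 18.02, 17.68, 17.8 and 17.61 in rTg4510 and 17.91, 17.88, 17.79 and 17.72 in WT. With means this close, the adjustment could remove little of a genotype difference. The part of such a stimulus in the differences was not tested. Of the 13 genes 2 were called higher at 2, 4 and 8 months and 4 at 6 months, and none lower. The share of all genes called higher was 1.58%, 9.47%, 11.3% and 10.5% at 2, 4, 6 and 8 months. Egr2 (1.14, 1.48, 1.02 and 0.90) and Nr4a1 (1.43, 1.40, 2.25 and 2.24) were called at each age, and Atf3 (1.08) and Zfp36 (0.61), whose protein destabilizes Tnf mRNA, at 6 months.

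**Figure D3:**
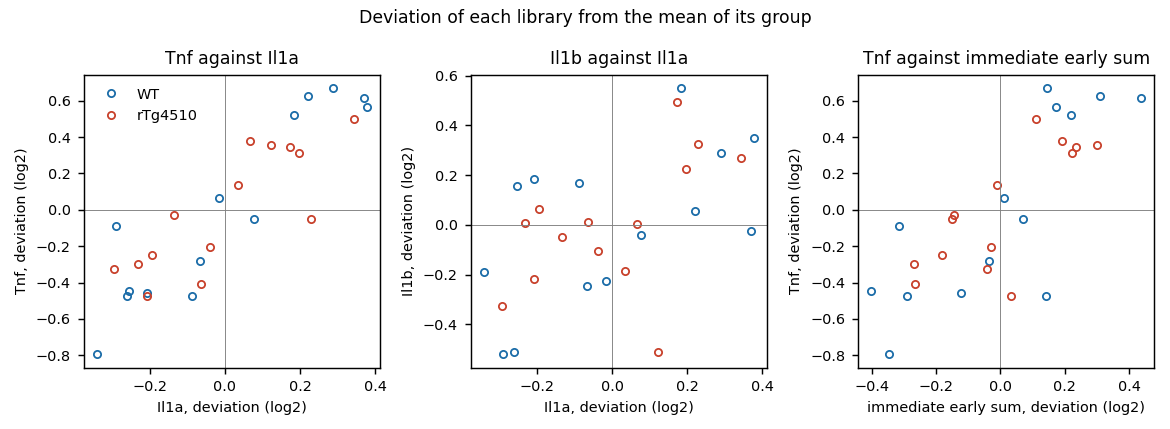
Deviation of each of the 28 libraries from the mean of its genotype and age, in log2 signal, for Tnf against Il1a, Il1b against Il1a, and Tnf against the summed immediate early genes. Blue circles are WT and red circles rTg4510. Both axes rise together most closely in the first panel (r = 0.885) and the third (r = 0.788), and less so in the second (r = 0.554).

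Of all genes, 1.58%, 9.47%, 11.3% and 10.5% were called higher at the successive ages, and 0.403%, 4.33%, 8.54% and 5.37% lower. The counts of the gene and marker lists that follow stand beside these shares, and a count near them is nothing particular to a list. Of the other receptors of the IL-1 family, 6 of 9 listed were measured, and 1, 2, 2 and 1 were called higher at the successive ages with none lower. Il1r1, the signalling receptor of both ligands, was at 0.58 at 2 months (FDR 0.0302, under the fold threshold) and higher by 1.15 at 4 months, 1.47 at 6 months and 1.36 at 8 months (SE 0.184, 0.159 and 0.184; FDR 6.44e-05, 2.22e-07 and 6.97e-06). Il1rl2, the receptor of IL-36, was called at 2 months (0.62) and 6 months (0.72), and Il1rl1, the receptor of IL-33, at 4 months (1.06). The decoy receptor Il1r2 was at 0.70, -0.25, 0.00 and 0.60, with an FDR of at least 0.384. Of 8 further ligands and binding proteins 3 were measured and none was called; Il18 was at -0.25, -0.46, -0.50 and -0.55, and passed the FDR but not the fold threshold from 4 months on.

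All 14 listed genes of IL-1 receptor signalling were measured, and the 1 that was called was Irak3, which encodes an inhibitory IRAK, at 6 months (0.82) and 8 months (0.85). Myd88 was at -0.14, -0.27, -0.21 and -0.33 and was not called. Of 10 genes for the release of IL-1 and TNF, none was called at 2 months, 1 was higher at 4 months, 1 was higher and 1 lower at 6 months, and 2 were higher at 8 months. Rhbdf2, a partner of the TNF-releasing protease, was higher by 0.74, 0.89 and 0.99 at 4, 6 and 8 months. Casp4 was called at 8 months (0.87) and Timp3, an inhibitor of that protease, was lower at 6 months (-1.36). Casp1 was at 0.32, 0.42 and 0.40 at these ages, past the FDR but under the fold threshold, and Adam17 was at 0.01, 0.15, 0.10 and 0.10 with no call.

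Of 17 other TNF superfamily ligands 10 were measured, and 2, 3, 5 and 5 of them were called higher at the successive ages with none lower. Tnfsf8 (1.16, 1.84, 1.54 and 1.56) and Tnfsf13b (0.97, 1.0, 0.75 and 0.86), which encodes the B cell survival factor BAFF, were called at each age. Tnfsf9 was called at 4, 6 and 8 months (1.72, 1.67 and 1.68) and Tnfsf12 at 6 and 8 months (0.76 and 0.84), as was Tnfsf13 (0.63 and 0.86). Of the other TNF receptors 20 of 24 were measured. None was called at 2 months, 1 was higher and 1 lower at 4 months, and 4 were lower at 6 and 4 at 8 months. Tnfrsf17 was lower by 1.11, 1.09 and 1.29 on the log2 scale at 4, 6 and 8 months, and Ngfr (-1.79 and -1.90) and Tnfrsf4 (-1.02 and -1.0) were lower at 6 and 8 months, with some rTg4510 libraries within 3 reads of their lowest value. Cd27 (-0.67) was the other one at 6 months and Relt (-0.69) at 8 months, and the receptor that was higher at 4 months was Tnfrsf10b (0.92).

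All 21 genes of TNF receptor signalling were measured. None was called at 2 months and 1 at each later age, Tnfaip3, an NF-κB target that encodes the inhibitor A20, at 1.09, 1.72 and 1.61 (SE 0.293, 0.254 and 0.293; FDR 0.00916, 1.49e-05 and 0.000234). Traf1 was at 0.25, 0.79, 0.59 and 0.13 and was not called. Of 10 genes that RANK induces in osteoclasts 8 were measured, with 1 higher at 2 months and 3 higher and 1 lower at each later age. Dcstamp, needed for the fusion of osteoclast precursors, was higher by 1.01, 3.65, 2.96 and 2.83. Acp5 was higher by 1.65, 1.05 and 1.34 at 4, 6 and 8 months, and Atp6v0d2, whose WT libraries were near the bottom of the scale, was at least 1.69-fold, 2.90-fold and 7.97-fold higher. Mmp9 was lower by 0.94, 1.22 and 0.78 on the log2 scale.

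**Figure D4:**
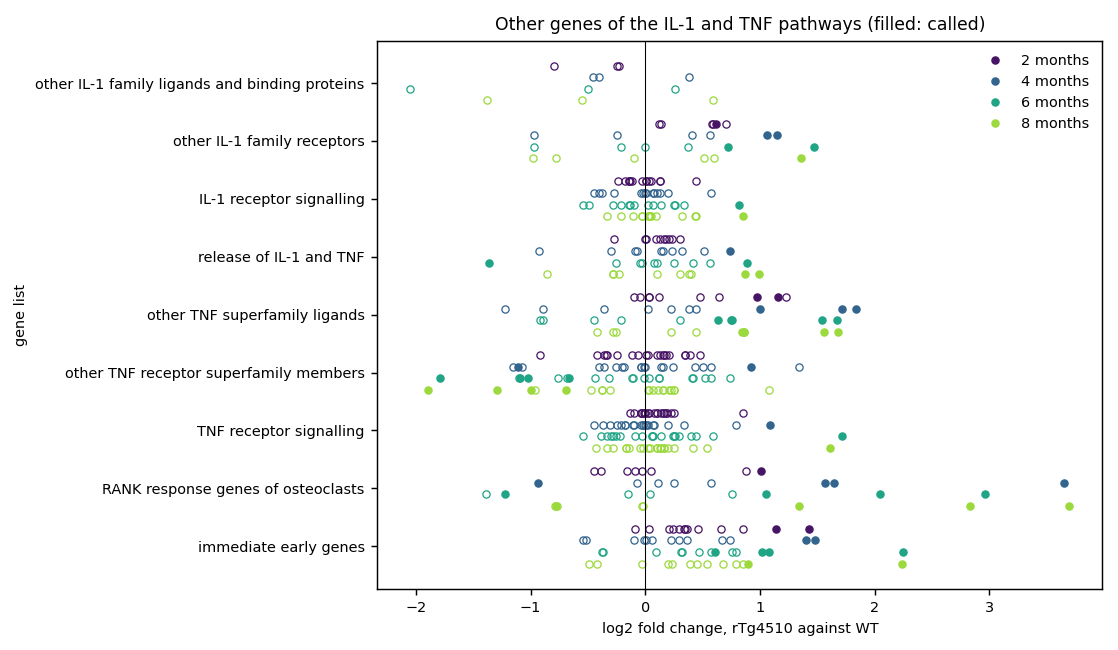
Log2 fold change of rTg4510 against WT (horizontal axis) for the measured genes of 9 lists (vertical axis) at 4 ages, 1 point per gene and age. Filled points passed both thresholds. The 2 signalling lists cluster around zero with 1 gene called in each, and the TNF superfamily ligands have called points at higher values only.

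By likeness of the signal over the 28 libraries, each gene centred on its own mean, Tnf was nearest to the chemokine receptor-like gene Ccrl2 (root mean square difference 0.242, against 1.05 for the spread of Tnf itself), Gem (0.281) and the chemokine gene Ccl3 (0.333). Il1b was nearest to Nr4a1 (0.326, own spread 1.11), Gpr65 (0.341) and Rasgef1b (0.374), and Il1a to Plek (0.205, own spread 0.471), Pfkfb3 (0.212) and Plk3 (0.22). Il1rn was nearest to Cspg4 (0.403, own spread 1.33), the pseudogene Cd63-ps (0.412) and Trpm6 (0.419). Tnfrsf11b was nearest to Lpl (0.304, own spread 1.88), Itgax (0.459) and Csf1 (0.523).

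The microglial label was checked against 9 markers, whose summed log2 signal was 14.41 to 15.20 in every library. Of these, 1 to 3 were called lower in rTg4510 at each age and none higher; the homeostatic markers Tmem119 (-0.74, -0.78 and -0.72) and Sall1 (-0.77, -0.86 and -0.81) were among those lower at 4, 6 and 8 months. Neutrophils and monocytes, which also carry CD11b and can make IL-1 and TNF, were read by their markers. Of 9 neutrophil markers 0 were called at 2 and 4 months, 8 were lower in rTg4510 at 6 months and 6 at 8 months, with sums of 8.24 to 9.03 in rTg4510 against 9.18 to 10.08 in WT at 4 months (median log2 fold change -1.10), 7.47 to 8.18 against 9.08 to 10.37 in WT at 6 months and 7.81 to 9.15 against 10.05 to 10.40 at 8 months. These sums overlapped at 2 months (8.77 to 10.41 against 9.12 to 9.93). The higher Il1b, Il1rn and Tnf signals of rTg4510 at 6 and 8 months stood beside lower neutrophil markers. Of 6 monocyte markers 1 was lower at 4 months, 4 lower and 1 higher at 6 months and 0 at 8 months. Of 4 measured T and NK cell markers Klrb1c was higher at each age (2.31 at 6 months) and Nkg7 was lower at 6 months (-1.62), with a median over the 4 of -0.27 at 6 months, and the sum was 6.82 to 7.18 in rTg4510 against 5.46 to 6.73 in WT at 6 months. Of 4 B cell markers 2 were lower at 4 months and 0 at the other ages, and of 6 border macrophage markers 1 was lower at 6 months. Of 6 astrocyte markers Gfap was higher at 6 and 8 months (1.52 and 1.80), Aqp4 was lower at both (-1.22 and -1.38) and Slc1a2 was lower at 8 months (-2.14). Of 6 endothelial markers Flt1 was higher at 4, 6 and 8 months (0.98, 1.89 and 1.17), Pecam1 was lower at these ages (-1.35, -2.12 and -2.04) and Cdh5 was lower at 6 months (-0.86). Of 3 measured neuronal markers Snap25 was lower at 6 months (-1.42), and none of 6 oligodendrocyte markers was called at any age. WT replicate 1 of 8 months stood apart, with an astrocyte sum of 11.19 against 9.13 and 9.03 in the other kept WT libraries of that age, and an oligodendrocyte sum of 10.59 against 8.77 and 7.98. Without it the 5 calls at 8 months stayed, at 0.96 for Il1a, 2.24 for Il1b, 2.26 for Tnf, 2.59 for Il1rn and 3.48 for Tnfrsf11b. The part of these cells in the results was not tested. Mapt, the mouse gene for tau, was not called in these cells (-0.49, -0.63, -0.27 and -1.01). Whether its signal counts RNA of the human tau transgene was not tested. Prnp, also read because of the transgene, was higher at 6 months (1.19, FDR 0.014).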

How the data were processed

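Paired-end libraries had been made from Ovation V2 cDNA. The authors added up the exon reads of repeated runs, dropped exons that were low in most samples, used a robust linear model to reach 1 signal per gene, and then took log2 and median normalized. The deposited values are these log2 signals for 18588 genes. The submitters' processing notes name the build GRCm38; the aligner is not given in the sources used here. Read depth is not in the table, so no counting interval can be given, and the number of libraries limits the precision. Gene numbers were matched to RefSeq names (95.9%).

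The 28 libraries that passed the study's quality control were fitted with limma 3.58.1 (R 4.3.3), with a mean for each of 8 groups, no variance moderation, 20 residual degrees of freedom and contrasts, and Benjamini-Hochberg FDR over all genes within a contrast. The fit was tested on simulated data. Replicate numbers were read from the last digit of the library titles, which name no pool. The study describes the replicates as biological, prepared from pooled forebrains. Named genes were the 9 members, at most 4 called genes of each list with the largest change at 6 months, a few genes that bind or cut a member, and the 3 nearest profiles of each called member; Tnfsf13, Relt and Tnfrsf10b were named after their values were seen. The members and lists were chosen with earlier results of these data known. Both genotypes carry the same replicate numbers. After group means were removed, same-numbered libraries correlated over genes by 0.131 to 0.153 at 6 months and 0.15 to 0.291 at 8 months. Libraries of unlike number correlated by -0.127 to 0.0913 and by -0.259 to -0.0281 at these ages. At 2 months the values were 0.0649 to 0.167 for the same number and -0.194 to 0.0816 for unlike numbers. At 4 months they were -0.0999 to 0.124 and -0.0709 to 0.154. The permutation kept pairs together at 6 and 8 months only, and did not allow for the shared deviations of same-numbered libraries at 2 months. Figures were drawn with matplotlib 3.10.9.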

Additional observations from a re-analysis of the deposited data

Results flagged for a closer look

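In rTg4510 at 6 months, replicate 2 of Tnfrsf1a was at a log2 signal of 7.43 and stood apart from the other 3 libraries, at 7.54 to 7.55. This was 1 of 36 groups of 4 libraries examined, and chance marks about 1 in 20.

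The genotype difference itself differed between ages, by the interaction term of the limma model, for Il1rn at 4 against 2 months (1.90, FDR 0.0236) and at 8 against 2 months (1.67, FDR 0.039), for Il1b at 8 against 2 months (1.26, FDR 0.0284) and for Tnfrsf11b at 4 against 2 months (3.47, FDR 1.07e-09), 6 against 4 months (-1.19, FDR 0.0195) and 8 against 2 months (1.95, FDR 2.2e-06). The values of Tnfrsf11b, and in part those of Il1rn, include WT signals near the bottom of the scale.

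The libraries that failed the study's quality control entered the model only where all 32 libraries were fitted, and the 5 genes called at the later ages lay in their rTg4510 libraries above every kept WT library of the same age. The rTg4510 library of 4 months that was left out had 9.89 for Il1a, 6.76 for Il1b, 5.07 for Il1rn, 6.52 for Tnf and 5.62 for Tnfrsf11b, against highest kept WT signals of 9.32, 6.60, 4.21, 6.12 and 1.82. That of 8 months had 9.92 for Il1a, 8.72 for Il1b, 6.87 for Il1rn, 8.35 for Tnf and 5.51 for Tnfrsf11b, against 9.15, 7.44, 4.23, 5.92 and 1.87. In both of these libraries Tnfrsf1a, Tnfrsf1b and Tnfrsf11a, which were not called, also lay above every kept WT library of the age. Tnfrsf1a had 8.43 and 8.61, against highest kept WT signals of 7.66 and 7.65. Il1rap did so at 8 months only. This position was therefore not particular to the called genes, and its share over all genes was not counted.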

How the results depend on the processing

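The counts of genes called out of 9 were 5 at 4, 6 and 8 months and became 3 at each of these ages when only genes above the 25th percentile of mean signal were tested, since Il1rn, Il1rap and Tnfrsf11b were then not tested. By the same filter the counts of changed differences became 0 at 4 against 2 months, 0 at 6 against 4 months and 1 at 8 against 2 months, and that of rTg4510 at 8 against 2 months became 2. At 2 months the filter added the call for Tnf, while Tnfrsf11b, called without the filter, was not tested. At 4 months the count was 3 with only the 2 groups of an age in the fit, where Il1a and Tnf were lost (Il1a also at 8 months), and 8 with no fold threshold. The 1 call at 6 against 4 months became 0 with a moderated variance, with all 32 libraries and with the replicate block. When each library was left out in turn, the count was 1 to 3 at 8 against 2 months, 1 to 2 at 4 against 2 months, 0 to 1 at 6 against 4 months and 0 to 1 in WT at 8 against 2 months; the libraries concerned are named with these results. The replicate block, fitted at all ages, added the call for Tnf at 2 months (1.14) and changed no other genotype call. Directions turned for genes that were not called: Il1rap at 4 months (-0.07), Tnfrsf1a (0.01) and Tnfrsf1b (-0.04) at 8 months with all 32 libraries, and Tnfrsf1b at 8 months with quantile normalization (-0.08). Over single omissions Tnfrsf1b ranged from -0.11 to 0.01 at 6 months and from -0.02 to 0.04 at 8 months, and Tnfrsf1a from -0.11 to 0.04 at 8 months. With all 32 libraries, Il1b was no longer called at 2 months (1.0) and r of Il1a with Tnf was 0.673. The immediate early covariate, added after the data were seen, ended no call and added those for Tnf at 2 months and in its difference at 4 and 8 against 2 months. The group means of the immediate early sum were close between the genotypes at each age, so this covariate could remove little of a difference.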

Other observations

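The 4 libraries left out by the study also differed in the receptor genes that were alike in the kept libraries. Tnfrsf1a, at 7.35 to 7.73 in the kept libraries, had 9.03 in WT and 8.43 in rTg4510 at 4 months, and 8.40 and 8.61 at 8 months. Tnfrsf1b had 8.20 and 7.93 at 4 months and 8.18 and 8.02 at 8 months, against 7.29 to 7.82 in the kept libraries. Il1rap at 4 months was 5.12 in WT and 3.32 in rTg4510. Tnfrsf11b of the WT libraries left out was 1.88 at 4 months and 1.93 at 8 months, as near the bottom of the scale as in the kept ones. The cause was not tested.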
